A study of Mus musculus with 2 samples.

Results

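Gene-end open regions are stretches of open chromatin that lie just past the 3′ ends of genes. They were the intervals of the series-level conservative peak list whose strongest summit lay over 1 kb from every protein-coding transcription start site (TSS), outside every protein-coding gene, and within 2 kb downstream of the 3′ end of a protein-coding gene. The 3′ end of a gene was the end of its record in the GENCODE vM21 annotation of mm10 (GRCm38). Of the 43478 intervals in the list, 742 met this rule, which is 1.71%. They were set against the 3723 intervals 2 to 20 kb downstream of a 3′ end that met the other conditions. ATAC-seq was run on hematopoietic stem cells taken as primary cells from mice of strain C57BL/6J, male adults 5 to 6 weeks old, with 50000 cells per library. There was 1 group with 2 biological replicates and no second condition. Both replicates carry 1 and the same donor identifier, so they may or may not be separate animals, and the health state of the mice is given as unknown. Sequencing instruments are named for replicate 1, a HiSeq and a NextSeq, but not for replicate 2, so instrument and replicate cannot be told apart.

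ATAC-seq uses the Tn5 transposase to cut and tag DNA that is not packed in closed chromatin, and peaks mark places where such cuts pile up. Transcription runs on past the end of a gene: the nascent RNA is cleaved after a poly(A) signal, and RNA polymerase II goes on for some distance before it is released. The sequence there can hold enhancers, binding sites of CTCF (a zinc finger protein that marks boundaries and loop anchors), starts of antisense or noncoding RNAs, and the promoter of the next gene. Hematopoietic stem cells sit at the top of the blood hierarchy, and factors of the ETS, RUNX, GATA and MEIS families bind many of their enhancers.

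The summit windows of 4 strong gene-end regions are shown because each holds a motif of 1 or more factor families that the results below count. They were the highest of the 40 strongest members for the motif named. Each is the summit base of GRCm38 with 100 bases to either side, printed 5′ to 3′ on the strand of the adjacent gene, with motif matches on either strand in capitals. Near Csrp1 (chr1:135753040-135753240, + strand) the capitals mark a CTCF match. Near Gm13691 (chr2:83994010-83994210, + strand) they mark an ETS match. Near Tmtc2 (chr10:105186711-105186911, − strand) they mark a GATA match and then a RUNX match. Near Crisp2 (chr17:40763749-40763949, − strand) they mark matches of IRF (interferon regulatory factors) and AP-1.
Csrp1: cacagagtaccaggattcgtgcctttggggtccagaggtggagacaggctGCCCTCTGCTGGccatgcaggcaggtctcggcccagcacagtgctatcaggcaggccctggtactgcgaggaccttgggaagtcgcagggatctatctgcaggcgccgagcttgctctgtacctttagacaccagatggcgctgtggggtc
Gm13691: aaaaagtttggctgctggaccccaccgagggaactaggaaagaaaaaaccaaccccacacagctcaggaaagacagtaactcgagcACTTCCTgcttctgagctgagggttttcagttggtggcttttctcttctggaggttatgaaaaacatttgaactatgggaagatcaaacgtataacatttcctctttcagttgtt
Tmtc2: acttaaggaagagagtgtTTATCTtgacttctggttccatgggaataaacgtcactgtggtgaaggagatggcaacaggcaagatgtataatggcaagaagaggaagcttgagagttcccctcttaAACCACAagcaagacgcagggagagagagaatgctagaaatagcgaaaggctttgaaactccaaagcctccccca
Crisp2: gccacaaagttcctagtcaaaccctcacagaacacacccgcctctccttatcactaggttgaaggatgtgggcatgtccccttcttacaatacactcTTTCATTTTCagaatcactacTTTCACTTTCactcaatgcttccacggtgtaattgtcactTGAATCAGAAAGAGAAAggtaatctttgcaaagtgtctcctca

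A further 3 windows come from genes of the stem cell surface and interferon lists and were chosen after their values were seen. Both regions past Procr hold a CTCF match in capitals, at chr2:155756945-155757145 for the farther one and chr2:155755813-155756013 for the nearer one, both on the + strand. The region past Usp18 (chr6:121272626-121272826, + strand) holds an IRF match.
Procr, farther: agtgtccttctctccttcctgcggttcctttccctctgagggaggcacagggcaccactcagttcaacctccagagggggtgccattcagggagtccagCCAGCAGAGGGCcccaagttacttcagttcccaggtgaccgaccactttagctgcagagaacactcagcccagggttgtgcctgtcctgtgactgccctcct
Procr, nearer: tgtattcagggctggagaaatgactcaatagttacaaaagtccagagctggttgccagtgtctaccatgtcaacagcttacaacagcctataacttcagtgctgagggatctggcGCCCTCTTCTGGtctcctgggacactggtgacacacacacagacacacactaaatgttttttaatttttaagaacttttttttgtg
Usp18: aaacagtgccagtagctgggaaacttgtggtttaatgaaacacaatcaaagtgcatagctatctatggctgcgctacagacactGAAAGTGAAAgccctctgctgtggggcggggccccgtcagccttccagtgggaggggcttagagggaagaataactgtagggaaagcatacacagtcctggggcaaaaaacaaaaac

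Peak lists do not give the read depth, and a region missing from a list was not called there and is not known to be closed. In bulk cells, a site open in few cells and a site partly open in all cells cannot be told apart. The replicate 1 list held 25141 intervals and the replicate 2 list 24495. As a check of the labelled cell type, 10 of 12 HSC marker genes had an open promoter, a summit within 1 kb of a TSS. Runx1, Meis1, Hlf and Kit were among them, and Procr and Mecom lacked one. The background is 55.3% of all protein-coding genes, so short lists such as these are a coarse check. Of the other marker lists, 1 of 6 erythroid genes (Epor) had an open promoter, 0 of 6 granulocyte and monocyte genes, 0 of 4 B cell genes and 0 of 4 T and NK cell genes. For stroma and endothelium 3 of 4 had one (Col1a1, Col1a2 and Cdh5), and the part of such cells in the gene-end regions was not tested.

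The first question was whether open regions are packed more densely just past gene ends than farther away. Gene-end sequence outside genes and promoters came to 32.02 Mb and held 23.2 regions per Mb (95% Poisson interval 21.5 to 24.9), against 20.4 per Mb (19.7 to 21.1) over the 183 Mb from 2 to 20 kb. The ratio was 1.14. In replicate 1 alone there were 372 gene-end regions, 11.6 per Mb, against 10.1 per Mb from 2 to 20 kb, and in replicate 2 alone 387, 12.1 per Mb, against 9.99 per Mb. The gene-end density was thus the higher one in both lists, with ratios of 1.15 in replicate 1 and 1.21 in replicate 2. The whole genome held 15.95 intervals of the conservative list per Mb. These and all other intervals given here cover counting error only.

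Within the gene-end window there was no peak of density at the 3′ end itself. From 0 to 2 kb, in steps of 500 bp, the density was 22.8, 23.4, 22.2 and 24.3 regions per Mb, and the 4 Poisson intervals overlapped. It was 25.8 per Mb at 2 to 3 kb, 22.4 at 3 to 5 kb, 20.5 at 5 to 10 kb and 18.8 at 10 to 20 kb. The drop past 3 kb was present in both replicate lists, with 13.1 per Mb in replicate 1 and 13.8 per Mb in replicate 2 at 2 to 3 kb, and 9.22 per Mb in replicate 1 and 9.01 per Mb in replicate 2 at 10 to 20 kb.

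The share of repeats changed with distance in the same range. Of the eligible sequence, 26.6% was soft-masked as repeats in the first 500 bp and 42.2% at 10 to 20 kb. The next comparison was added once results had been seen. Counted outside soft-masked sequence only, 685 gene-end regions gave 30.9 per Mb (28.6 to 33.3), against 32.2 per Mb (31.1 to 33.3) from 2 to 20 kb. The ratio was then 0.960, with 0.972 in replicate 1 and 1.01 in replicate 2, so the higher gene-end density was not present there. In that sequence the density was 28.9 per Mb in the first 500 bp, 37.5 per Mb at 2 to 3 kb and 30.5 per Mb at 10 to 20 kb. The share of summits outside soft-masked sequence was 92.3% of gene-end regions and 92.4% of those from 2 to 20 kb.

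**Figure D1:**
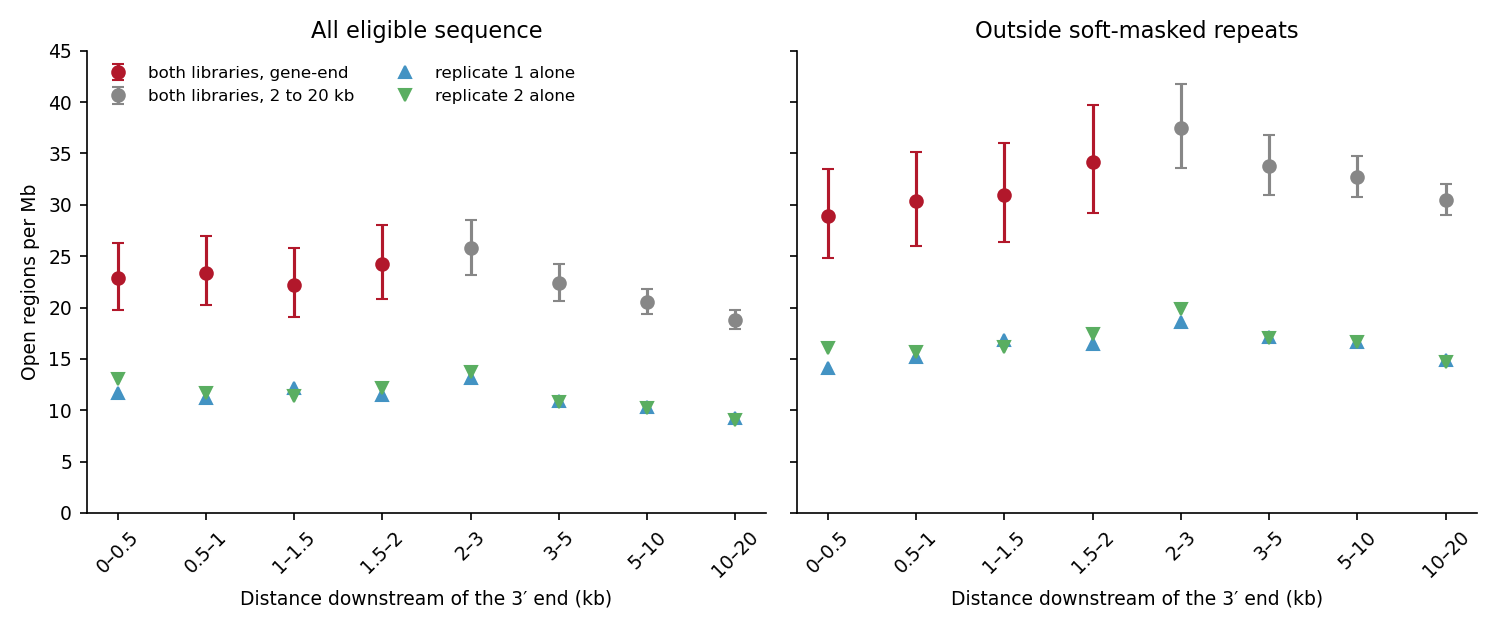
Open regions per Mb (vertical axis) by distance downstream of the nearest 3′ end in kb (horizontal axis, unequal steps), over all eligible sequence on the left and outside soft-masked repeats on the right. Red points are gene-end regions and grey points those 2 to 20 kb away in the list from both libraries, with 95% Poisson intervals; triangles are each replicate's own list. On the left the 4 gene-end points lie between 22.2 and 24.3 per Mb, above the 18.8 per Mb at 10 to 20 kb; on the right the first point, 28.9 per Mb, lies below the 30.5 per Mb at 10 to 20 kb.

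The limit of 2 kb splits a continuous range. Just inside 2 kb, the regions past Arl3, Zfp846 and Unc5b lay 1993, 1987 and 1985 bp from the 3′ end with signal values of 7.52, 12.6 and 13.0. Just outside, those past Lyz1, Gm13283 and Fgd2 lay at 2001, 2002 and 2005 bp with 11.0, 7.42 and 9.85.

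Gene-end regions were slightly weaker than those farther downstream. The signal value is the number that the authors' peak caller gave each summit, and it is used here only to rank and describe regions within 1 list. Its median was 7.77 in gene-end regions (quartiles 6.48 and 9.53), against 8.09 (6.53 and 10.2) in regions from 2 to 20 kb, a log2 ratio of -0.06. In each replicate's own list the medians were 7.66 in gene-end regions against 8.17 farther away for replicate 1, and 8.96 against 9.27 for replicate 2, log2 ratios of -0.09 and -0.05. The shift was small against the spread within each class, and the classes overlapped over nearly their whole range, 1.96 to 19.3 in gene-end regions and 1.83 to 26.9 from 2 to 20 kb. For scale, the median was 8.10 over all intervals over 1 kb from a TSS and 9.56 over promoters.

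The upper tail was thinner at gene ends. The strongest 10% of the whole list held 26 gene-end regions, 3.50% of them (95% Wilson interval 2.40 to 5.08), against 230 or 6.18% (5.45 to 6.997) of those from 2 to 20 kb, where the background over all intervals is 10%. The weakest 10% held 13.6% (11.3 to 16.3) of gene-end regions, against 9.86% (8.94 to 10.9).

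Nearness to a promoter was set beside this difference. A protein-coding TSS lay within 5 kb of 285 gene-end regions, 38.4%, against 13.6% of regions from 2 to 20 kb. Gene-end regions with such a TSS had a median signal of 7.16, against 7.01 for regions from 2 to 20 kb with one. In the replicate lists the medians were 7.38 at gene ends against 7.32 in replicate 1, and 8.38 against 8.37 in replicate 2. Over 5 kb from every TSS, a comparison also added once results had been seen, the median was 8.18 in 457 gene-end regions and 8.22 in 3216 regions from 2 to 20 kb, a ratio of 0.995. In the replicate lists these regions had 8.22 at gene ends against 8.38 in replicate 1, and 9.16 against 9.54 in replicate 2. Gene-end regions were thus slightly the lower ones over 5 kb from every TSS and slightly the higher ones within 5 kb of one. The part of nearness to a promoter in the signal difference was not tested.

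**Figure D2:**
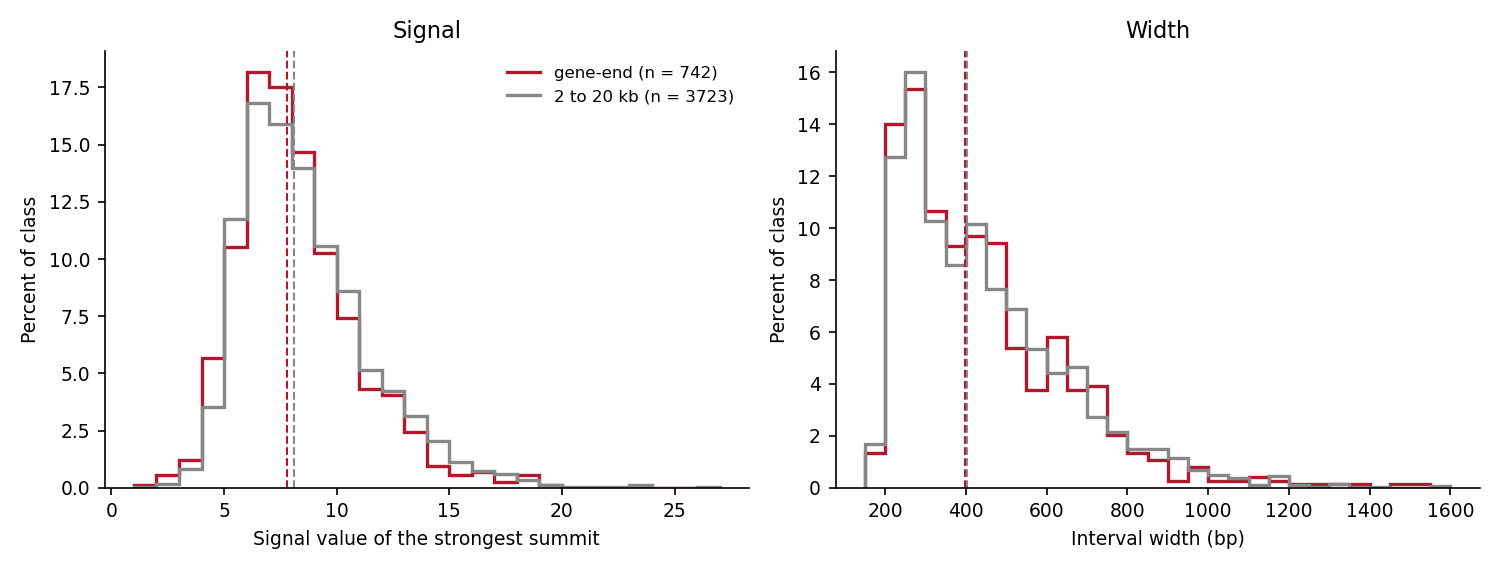
Percent of each class (vertical axes) by the signal value of the strongest summit (left, the peak caller's units) and by interval width in bp (right), for gene-end regions in red and regions 2 to 20 kb downstream in grey; dashed lines are medians. The signal medians are 7.77 and 8.09, and the width medians of 397 and 403 bp nearly coincide.

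Widths did not separate the classes. The median gene-end region was 397 bp wide (quartiles 281 and 547), against 403 bp (279 and 556) from 2 to 20 kb and 605 bp at promoters. In the replicate lists the medians were 397.5 bp in gene-end regions against 416 bp in replicate 1, and 413 against 436 bp in replicate 2. More than 1 summit was listed in 25.5% of gene-end regions and 27.3% of those farther away.

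Gene-end regions were close to those farther away in base content. The windows of 100 bp to either side of the summit had a median GC content of 52.5% (quartiles 48.8 and 56.2), against 51.7% (47.3 and 55.7) from 2 to 20 kb. In each replicate's own list the medians of the 2 classes were equal at 52.7%. Over 5 kb from every TSS the difference was also 0. Eligible sequence past gene ends had 43.8% to 44.2% GC in the steps to 2 kb. Windows 1 kb to either side of the summits had 48.3%, against 46.3% beside regions from 2 to 20 kb. These flanks were not kept outside genes. The median gene-end summit was 951.5 bp from the 3′ end, so many flanks on the gene side fall in the adjacent gene, unlike those from 2 to 20 kb. Gene-end windows were 23.5% A, 25.9% C, 26.6% G and 23.99% T on the strand of the adjacent gene.

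CpG dinucleotides were scarcer at gene ends than 2 to 20 kb away, and about as scarce as in all intervals over 1 kb from a TSS. The median ratio of observed to expected CpG was 0.235 in gene-end windows, against 0.269 from 2 to 20 kb, 0.236 in all intervals over 1 kb from a TSS and 0.730 at promoters. The replicate lists gave 0.251 in gene-end windows against 0.297 in replicate 1 and 0.248 against 0.287 in replicate 2. Windows rich in CpG (ratio over 0.6 with GC over 50%), the makeup of most mammalian promoters, numbered 63 at gene ends, 8.49% (6.69 to 10.7), against 9.19% (8.30 to 10.2) farther away. These 63 gene-end regions were wider and stronger than the other 679, with a median width of 627 against 389 bp and a median signal of 9.07 against 7.71, and in the replicate lists 8.71 against 7.66 in replicate 1 and 9.95 against 8.84 in replicate 2. The same contrast was present from 2 to 20 kb, with widths of 503.5 against 392 bp and signals of 8.75 against 8. There the replicate lists gave 8.75 against 8.19 in replicate 1 and 9.63 against 9.37 in replicate 2. The median share of soft-masked repeat sequence in the window was 0% at gene ends and 4.98% from 2 to 20 kb.

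The share of gene-end regions found in both libraries at the strict threshold was close to that farther away. Of the 742, 280 or 37.7% (34.3 to 41.3) overlapped a peak in the thresholded lists of both replicates, against 35.2% (33.6 to 36.7) from 2 to 20 kb and a background of 44.8% over all intervals. A further 70 were in the replicate 1 list alone, 94 in the replicate 2 list alone, and 298 or 40.2% in neither. In the less strict lists the order was the other one: 640, or 86.3% (83.6 to 88.5), were found in both replicates, against 89.9% (88.9 to 90.8) farther away. There 16 gene-end regions were found in neither. The series-level list pools both libraries, which can call a region that neither library passes alone.

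Members found in both lists were the stronger and wider ones. Their median signal was 9.66 and width 502 bp, against 6.50 and 295.5 bp for members in neither list. The same held from 2 to 20 kb, with 10.7 and 526 bp in both lists against 6.46 and 305 bp in neither. Over the 280 shared members the log2 signals of the replicates had a Pearson correlation of 0.80 and a Spearman correlation of 0.756, given as a description across regions, which share their libraries and the selection by both lists. Of the 40 strongest members, 39 were in both lists. The replicate lists come from the same libraries as the signal, and a wide interval reaches an overlap of 1 bp more easily. That shared members were stronger and wider is thus partly set by the selection.

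**Figure D3:**
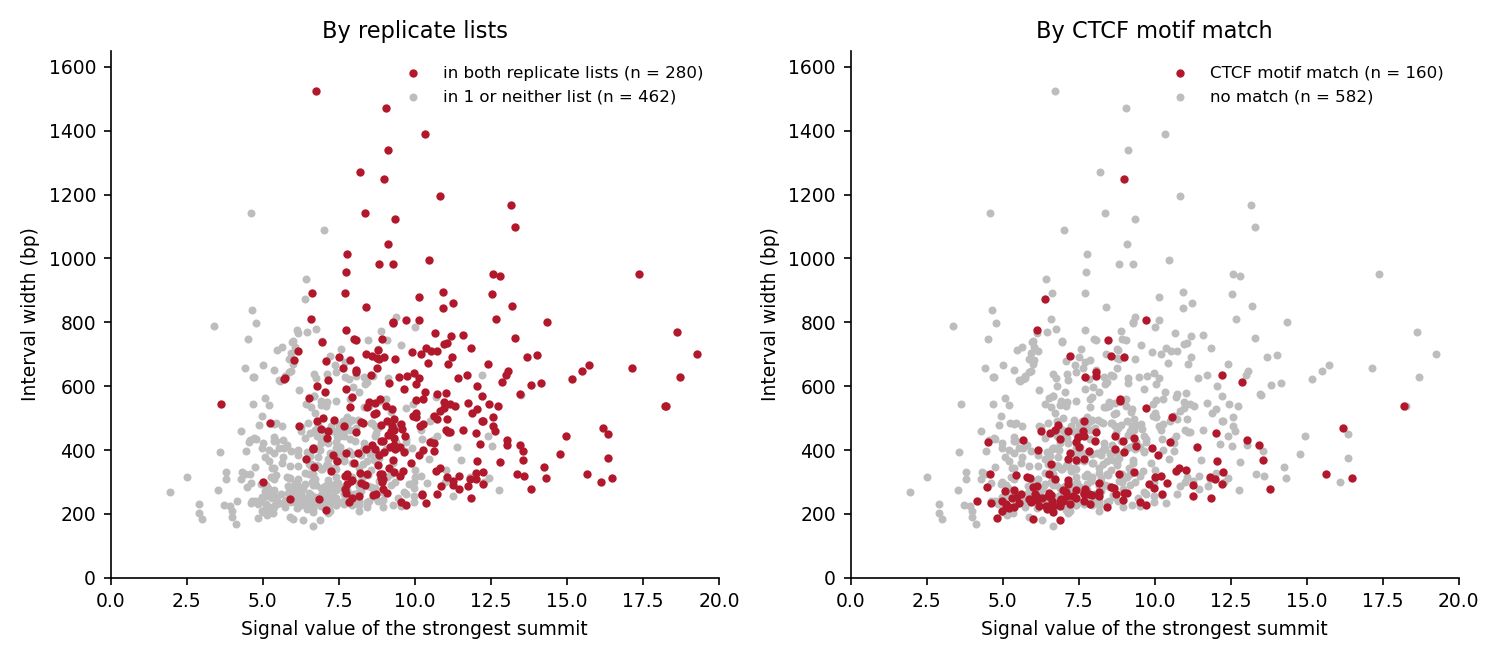
Interval width in bp (vertical axes) against the signal value of the strongest summit (horizontal axes, the peak caller's units) for all 742 gene-end regions, 1 point each. On the left red points are the 280 regions in both replicate lists, with a median width of 502 bp; on the right red points are the 160 with a CTCF motif match, most of them low on the plot, with a median width of 293 bp.

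The strongest gene-end regions lay past genes of varied function, several of them known from other tissues. The region past Tmem132b, 1942 bp from its 3′ end, had signals of 16.3 in replicate 1, 15.3 in replicate 2 and 19.3 in the list from both. Past C6, which encodes a component of the complement membrane attack complex, the values were 16.5, 17.5 and 18.6 at 1983 bp. Past Tnfaip8l3, which encodes a lipid transfer protein, they were 13.6, 15.2 and 18.3 at 442 bp. All 12 highest members were in both replicate lists, with replicate values between 11.7 and 17.5.

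Past Csrp1, which encodes a LIM domain protein, the CTCF-bearing window shown above had 15.4 in replicate 1, 16.2 in replicate 2 and 18.2 in the list from both, 908 bp from the gene. The RUNX- and GATA-bearing window past Tmtc2, which encodes an endoplasmic reticulum glycosyltransferase, had 14.5, 16.8 and 17.4 at 852 bp. Past Crisp2, a gene of sperm, the window with IRF and AP-1 matches had 12.1, 14.1 and 16.4, and its interval of 375 bp reached into the gene, the summit lying 171 bp past the end. All 3 were in both replicate lists.

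Past Gm13691, a predicted protein-coding gene, the ETS-bearing window had 11.7, 14.6 and 16.4 at 1065 bp. The region past Tspyl2, which encodes a member of the nucleosome assembly family, was 1 of 12 members on chromosome X. It had 15.1, 13.7 and 17.2 at 110 bp, and it too reached into the gene. Past Ddx25, which encodes an RNA helicase of the testis, a narrow region of 311 bp with a CTCF match had 11.9, 13.7 and 16.5. Past Akr1c13, which encodes an aldo-keto reductase, a region of 300 bp had 12.1, 14.6 and 16.1.

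The other 2 of the 12 highest sat on the starts of noncoding genes. The summit past Rd3, which encodes a regulator of guanylate cyclase in photoreceptors, was 76 bp from the start of the antisense RNA Gm26670 and had 16.04 in replicate 1, 16.4 in replicate 2 and 18.7 in the list from both. Rd3 had no open promoter of its own. The summit past Tmem167b was 45 bp from the start of Scarna2, a guide RNA for the modification of spliceosomal RNAs, with 13.6, 14.9 and 16.2.

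**Figure D4:**
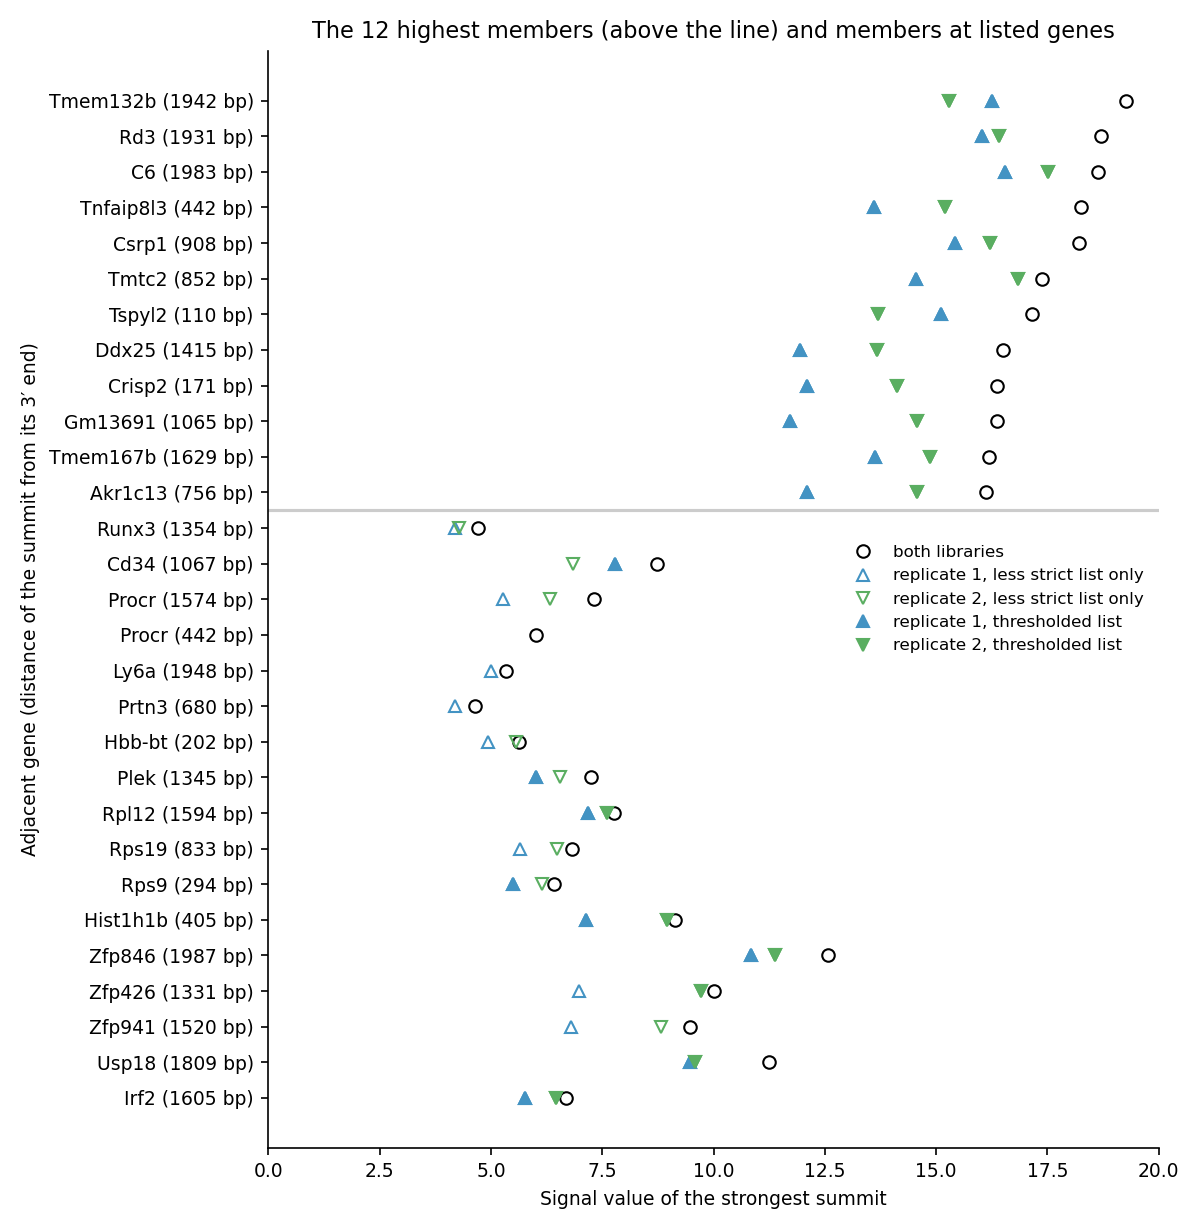
Signal value of the strongest summit (horizontal axis, the peak caller's units) for the 12 highest gene-end regions and for those at listed genes, 1 row each with the adjacent gene and the distance of the summit from its 3′ end. Circles are the list from both libraries, upward triangles replicate 1 and downward triangles replicate 2, filled where the region was in the thresholded list and open where it was only in the less strict one. All 12 upper rows have filled triangles above 11.7, and the nearer Procr region has a circle alone, at 6.02.

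Starts of noncoding genes were no more frequent at gene ends than farther away. A noncoding TSS lay within 1 kb of 58 gene-end summits, 7.82% (6.10 to 9.97), against 8.97% (8.10 to 9.93) from 2 to 20 kb and a background of 8.17% over all intervals. The nearest was a long noncoding RNA for 37 of the 58, a small RNA for 6, a pseudogene for 6 and an unclassified transcript awaiting experimental testing for 9. The 58 had a median signal of 8.39, against 7.76 for the other 684, with 8.14 against 7.69 in replicate 1 and 9.75 against 8.89 in replicate 2. Of the 58, 29 (Wilson interval 37.5% to 62.5%) were in both replicate lists, against 36.7% (33.2 to 40.4) of the others. In the RefSeq annotation, 42 gene-end summits, 5.66%, lay inside a protein-coding gene and 17 within 1 kb of an mRNA start, together 50 regions, so a small share of gene ends depends on the annotation.

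The widest members held several summits each. The region past Pdzk1ip1 spanned 1523 bp with 4 summits (chr4:115095552-115097074) and had signals of 5.76 in replicate 1, 6.39 in replicate 2 and 6.74 in the list from both. It lay 36.4 to 39.4 kb from the starts of Tal1, a master regulator of blood formation, and red cell enhancers of Tal1 have been described beyond Pdzk1ip1. Tal1 was singled out after the values were seen. Past Ctdsp1, which encodes a phosphatase of RNA polymerase II, 1472 bp with 4 summits had 8.49, 7.73 and 9.07, and the interval reached into the gene. The next widest were past Prr14, which encodes a protein that tethers heterochromatin to the nuclear lamina (1390 bp), Mrpl58, which encodes a mitochondrial ribosomal protein (1340 bp), and Zscan22, a zinc finger gene (1272 bp). All 5 were in both replicate lists, with signals from 6.74 to 10.3, none among the 12 highest. The summit past Prr14 was 494 bp from an mRNA start in RefSeq. It was 1278 bp from the GENCODE start of Fbrs, the next gene. The most summits in a region was 4, found in 10 members. The first of these by symbol was past Arl5c, 1141 bp wide, with a signal of 4.60 and a place in neither thresholded replicate list.

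At the other end, each of the 5 lowest members was found in the lists of a single library. The region past Dcps, which encodes the scavenger mRNA decapping enzyme, had 1.96 over 269 bp, and was in the less strict list of replicate 1 alone. Those past Pdcd6, Bhlhe40, Tmem183a and Arrdc2 had 2.52, 2.89, 2.91 and 2.997, with widths of 184 to 317 bp. Only the last was in a thresholded replicate list, that of replicate 2, at 7.58.

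The 5 summits nearest to a 3′ end were past Cdhr5 at 22 bp, Prpf40b at 40 bp, Ankrd13a and Prune2 at 43 bp and Thegl at 50 bp. Their signals were 4.52, 6.98, 9.29, 8.82 and 8.18 in the same order. The regions at Ankrd13a and Prune2 were in both replicate lists and the other 3 in neither. All 5 intervals reached into the gene, as did 57 members in all, 7.68%. At Prpf40b, a splicing factor gene, the 3′ end of Fmnl3 on the other strand was 167 bp from the summit, and 34 members lay within 2 kb of 3′ ends on both strands.

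The regions were spread over many genes. They fell to 718 nearest genes, 696 with 1 region, 20 with 2 and 2 with 3. Counting every gene whose 3′ end was within 2 kb gave 749 of 21938 protein-coding genes, a background of 3.41%. The pair with 3 regions was Dcps, at 352, 713 and 1394 bp, and Trappc8, which encodes a subunit of a vesicle tethering complex, at 198, 548 and 1737 bp. At Trappc8 the nearer 2 were in both replicate lists, with 8.48 in replicate 1 and 6.78 in replicate 2 at 198 bp, and 7.59 and 9.19 at 548 bp, and the third was in neither. At Dcps only the one at 1394 bp was in both, with 5.75 and 5.90. Per 1000 protein-coding genes there were 55.5 members on chromosome 1, the most, 20.9 on chromosome 19, the fewest among autosomes, 12.7 on chromosome X and 0 on chromosome Y. Regions from 2 to 20 kb were few on the sex chromosomes too, 72 on X and 2 on Y of the 3723, and the mice were male.

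Adjacent genes had an open promoter at a share close to that of genes next to regions farther away. Of the 718 genes, 463 or 64.5% (60.9 to 67.9) had a summit within 1 kb of a TSS, against 1944 of 2926 or 66.4% (64.7 to 68.1) for genes 2 to 20 kb away and a background of 55.3% of all protein-coding genes. Put the other way, 3.81% (3.49 to 4.17) of genes with an open promoter were nearest to a gene-end region, against 2.60% (2.31 to 2.94) of genes without one. Adjacent genes had a median length of 18.8 kb, against 21.9 kb farther away and 17.4 kb over all. The members with an open adjacent promoter had a median signal of 7.83, against 7.68 for those without. The order was the other one in both thresholded replicate lists, at 7.65 against 8.11 in replicate 1 and 8.84 against 9.12 in replicate 2. Those lists held only part of the members, in replicate 1 243 of the 479 with an open adjacent promoter and 107 of the 263 without. In the less strict lists the medians were 6.61 against 6.51 in replicate 1 and 7.42 against 7.50 in replicate 2.

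Other genes were nearer at gene ends, where the distance to a gene is also part of the rule. The next gene was a median of 14.2 kb away, against 25.7 kb, and the nearest TSS, which can be that of the adjacent gene itself, 6.65 kb, against 14.1 kb. The next gene faced the first tail to tail for 337 members, 45.4% (41.9 to 49.0), against 31.8% (30.3 to 33.3) from 2 to 20 kb. The rule bears on this share, because it drops summits within 1 kb of a start but not those near a facing 3′ end. A region within 2 kb of the facing 3′ end is also placed in the gene-end class. How much of the gap comes from the rule was not tested. Tail-to-tail members had a median signal of 7.83, against 7.74 for the other members, and 36.2% of them were in both replicate lists, against 39.0%. In the thresholded replicate lists the order of the signals was the other one, at 7.71 against 7.79 in replicate 1 and 8.68 against 9.14 in replicate 2. The less strict lists went opposite ways, with 6.54 against 6.61 in replicate 1 and 7.50 against 7.42 in replicate 2.

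The gene lists place a few stem cell genes among the members. Of 24 stem cell surface and cytokine receptor genes 3 had a gene-end region, 12.5% (4.34 to 31.004) beside the background of 3.41%, and the interval is wide. The region past Cd34, which encodes a sialomucin of stem and progenitor cells, had 7.78 in replicate 1 and 8.73 in the list from both at 1067 bp, and in replicate 2 only the less strict list held it, at 6.84. Procr encodes the protein C receptor EPCR, a surface marker of mouse stem cells, and had 2 regions. The one at 1574 bp had 5.27 and 6.32 in the less strict lists of replicates 1 and 2 and 7.31 in the list from both, and the one at 442 bp had 6.02 and was in no replicate list. Both hold the CTCF matches shown above, and Procr itself had no open promoter. Past Ly6a, which encodes the stem cell antigen Sca-1, a region of 203 bp had 5.34, with 4.99 in the less strict list of replicate 1 and none in replicate 2.

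Of 28 stem cell transcription factor genes 1 had a region: Runx3, a RUNX family factor, with 4.201 and 4.29 in the less strict lists and 4.71 in the list from both, at 1354 bp. That is 3.57% of the list, close to the 3.41% of all protein-coding genes. Lineage genes gave 1 region each in 3 lists, all of them with signals below the median of the members. The Wilson intervals of these 3 shares, between 0.935% and 37.7%, each hold the 3.41%. The genes were Prtn3 of 19 granulocyte and monocyte genes, which encodes proteinase 3, at 4.63, Hbb-bt of 15 erythroid genes, an adult beta globin gene, at 5.62, and Plek of 11 megakaryocyte genes, which encodes pleckstrin, at 7.25. Only the one past Plek was in a thresholded replicate list, at 6.02 in replicate 1. No region was found past any of 19 lymphoid, 10 stromal and endothelial or 23 cell cycle genes, with upper Wilson bounds of 16.8%, 27.8% and 14.3%. All 3 bounds lie above the background of 3.41%, so lists of this size do not show a lack of such regions.

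Among housekeeping lists, 7 of 82 cytosolic ribosomal protein genes had a region, 8.54% (4.197 to 16.6), against 3.41% of all protein-coding genes. The highest was past Rpl12, 1015 bp wide, with 7.17 in replicate 1, 7.60 in replicate 2 and 7.76 in the list from both. The summits past Rps19 and Rps9 had 6.81 and 6.41. Of 67 clustered histone genes 1 had a region, Hist1h1b, with 7.14, 8.96 and 9.14, and a summit 1147 bp from the nearest TSS.

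Of 365 Zfp zinc finger genes 8 had a region, 2.19% (1.11 to 4.26), an interval that holds the 3.41% of all protein-coding genes. The highest was past Zfp846, with 10.8 in replicate 1, 11.4 in replicate 2 and 12.6 in the list from both, and its summit was 62 bp from the start of the antisense RNA Fbxl12os. Those past Zfp426 and Zfp941 had 10.01 and 9.46. Of 20 interferon response genes 2 had a region, with a Wilson interval of 2.79% to 30.1% that also holds 3.41%. The one past Usp18, which encodes the protease that removes ISG15, had 9.47, 9.58 and 11.2 and lay 41 bp from the start of the noncoding RNA Gm44148. The one past Irf2, an interferon regulatory factor gene, had 5.76, 6.45 and 6.69.

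Of the 16 motifs searched, CTCF was the one whose share in gene-end regions stood highest over that in all intervals, and it was about as frequent 2 to 20 kb away. Its consensus, searched on both strands of the summit windows, was present in 160 gene-end regions, 21.6% (18.8 to 24.7), against 19.9% (18.7 to 21.2) from 2 to 20 kb, where the background over all intervals is 10.8%. All distal intervals held it in 13.6% and promoters in 4.63%. In the replicate lists the shares were 16.1% at gene ends against 16.2% in replicate 1, and 17.6% against 17.1% in replicate 2. Windows 1 kb to either side of the summits held it in 1.89% at gene ends and 2.50% farther away. In 151 of the 160 the match was within 50 bp of the summit, at a median of 16.5 bp. Matches stood on the gene strand in 91 members and on the opposite strand in 70, against 446 and 300 from 2 to 20 kb.

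Gene-end regions with a CTCF match were narrower than the others, and a smaller share of them was in both replicate lists. Their median width was 293 bp, against 423 bp in the 582 without one, and 26.9% (20.6 to 34.2) were in both replicate lists, against 40.7% (36.8 to 44.8). Their median signal was 7.51, against 7.88. The less strict replicate lists kept this order, with 6.41 with a match against 6.64 without in replicate 1 and 7.06 against 7.50 in replicate 2. The thresholded lists did not, at 8.003 against 7.73 in replicate 1 and 8.98 against 8.95 in replicate 2. Those lists held only 56 and 66 of the 160 regions with a match. From 2 to 20 kb the same contrast was present, with 302.5 bp for regions with a match and 425 bp for those without, and median signals there were 8.08 and 8.09.

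Motifs of the ETS, RUNX and GATA families were present in gene-end regions at rates close to those 2 to 20 kb away, and MEIS had a higher share with intervals that overlap slightly. ETS (AGGAAGT) was found in 18.3% (15.7 to 21.3) at gene ends, against 18.2% (17.0 to 19.5), with a background of 18.6% over all intervals and 22.6% in all distal ones. In the replicate lists its shares were 20.7% at gene ends against 20.1% in replicate 1, and 20.4% against 17.9% in replicate 2. RUNX (TGTGGTT) was found in 10.6% (8.63 to 13.1), against 10.8% (9.82 to 11.8), with a background of 10.6% and 13.6% in all distal intervals. In the replicate lists its shares were 10.5% at gene ends against 11.8% in replicate 1, and 11.1% in both classes in replicate 2. For the GATA family, searched as AGATAA, the shares were 7.28% and 7.76%, beside a background of 7.46%. The order was the other one in the replicate lists, with 8.06% at gene ends against 7.43% in replicate 1 and 8.01% against 6.74% in replicate 2. Windows 1 kb to either side of gene-end summits held ETS in 5.05%, RUNX in 5.46% and GATA in 8.42%. Farther away the flanks held 5.24%, 5.74% and 10.1%. GATA matches were thus no more frequent at summits than beside them. The flanks had a lower GC content, 48.3% against 52.5% at gene-end summits, and AGATAA is rich in A and T. The part of base content in this was not tested. AP-1 (TGANTCA) had 7.82% at gene ends, 9.13% farther away and a background of 8.1%, and IRF 2.56%, 3.52% and 3.46%.

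MEIS (TGACAG) was found in 18.3% (15.7 to 21.3) of gene-end regions, against 15.0% (13.9 to 16.2) from 2 to 20 kb, beside a background of 16.1% and 17.6% in all distal intervals. The replicate lists gave 17.5% at gene ends against 15.3% in replicate 1 and 18.9% against 15.2% in replicate 2. The CRE motif (TGACGTCA) was in 1 gene-end window, 0.135% (0.0238 to 0.759), against 21 or 0.564% (0.369 to 0.861) farther away, beside a background of 1.22%. SP (GGGCGG), frequent in promoters at 52.6%, was found in 11.99% at gene ends and 12.7% farther away, beside a background of 22.8%. In the replicate lists SP was the more frequent at gene ends, at 16.4% against 15.99% in replicate 1 and 15.8% against 15.4% in replicate 2.

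The remaining motifs differed little. NFY (CCAAT) had 21.0% at gene ends against 21.1%, beside a background of 23.8%, and the replicate lists went opposite ways, with 20.4% against 22.9% in replicate 1 and 24.8% against 22.4% in replicate 2. CEBP (TTGCNNAA) had 8.49% against 9.08%, beside 8.53%. The E-box CAGCTG had 16.6% against 15.2%, beside a background of 15%, and the E-box CAGATG 17.1% against 17.1%, beside 14.6%. NRF1 was in 6 gene-end windows and HLF (TTACNTAA) in 9, 0.809% and 1.21%, against 0.564% and 1.40% farther away, beside backgrounds of 2.19% and 1.5%. A match is a run of letters and was not taken as a bound site.

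The poly(A) signal AATAAA was less frequent in the open windows than beside them. It was found in 64 gene-end summit windows, 8.63% (6.81 to 10.9), against 10.2% (9.30 to 11.2) from 2 to 20 kb, beside a background of 9.1%. It stood on the gene strand in 32 members and on the opposite strand in 33. Windows 1 kb to either side, with a lower GC content, held it in 19.9% (17.99 to 22.1) at gene ends and 23.5% (22.5 to 24.5) farther away. Many of the gene-end flanks fall in the adjacent gene, which can hold its own poly(A) signal, so the 2 flank shares cover unlike sequence.

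**Figure D5:**
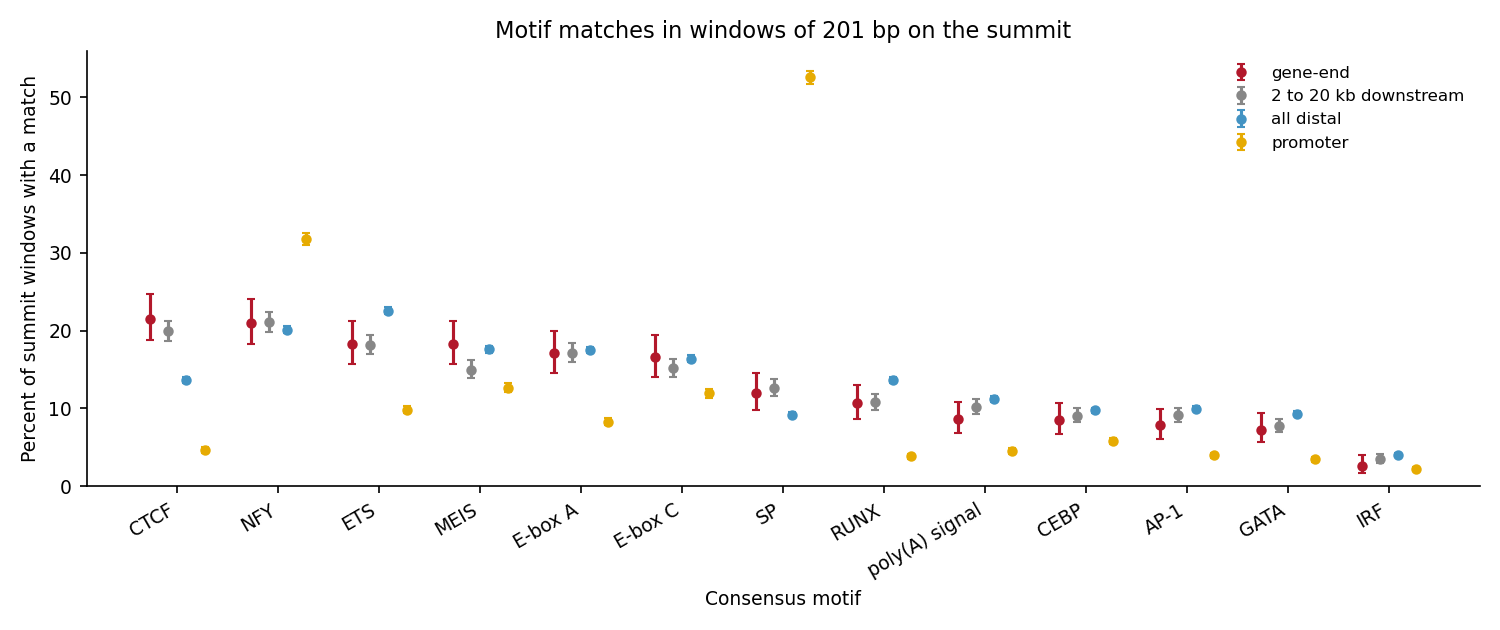
Percent of summit windows with a consensus match on either strand (vertical axis) for 13 motifs (horizontal axis; E-box A and E-box C are the forms CAGATG and CAGCTG), with 95% Wilson intervals. Gene-end regions are red, those 2 to 20 kb downstream grey, all distal intervals blue and promoters yellow. The red and grey points lie close together for CTCF, at 21.6% and 19.9%, well above the blue at 13.6% and the yellow at 4.63%.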

How the data were processed

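ATAC-seq peak lists of 2 libraries were used, with mm10 coordinates per the labels. Each summit of the deposited lists has a signal value, used here, and the −log10 of its q-value, read but not reported. How reads were aligned, offset and called as peaks is not given in the sources used here, and so depth is unknown. Per the deposited file notes, the replicate lists come from 1 library each and the series-level lists from both. The thresholded lists passed an irreproducible discovery rate filter, and the pseudoreplicated lists served as the less strict ones. The conservative list had 63180 lines and 43478 intervals, more than the series-level thresholded list with 54083 and 36033, so its name may not mean that it is the stricter one. An interval with several summits entered once, by the summit with the highest signal, and overlap meant at least 1 bp. Genes came from GENCODE vM21 and sequence and repeat masking from RefSeq GRCm38.p6. Density used sequence that met the same rule. Motifs were exact consensus matches within 100 bp of the summit. No sequence of chromosome 18 was printed.

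The members and lists were chosen with earlier results of these data known. Regions are not replicates, so no test was made over them; shares have 95% Wilson intervals, and replicate values stand beside the main comparisons. Named members were the 12 highest, 5 widest, 5 nearest, 5 lowest, those at listed genes (at most 3 for ribosomal, histone and Zfp genes), genes with 3 or more regions and the region with most summits, the first by symbol where tied. The scripts (Python 3.11.15, numpy 2.4.6, pandas 2.3.3, scipy 1.17.1) were tested on simulated data. Alternatives were other windows, TSS limits, lists, thresholds and classes.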

Additional observations from a re-analysis of the deposited data

How the results depend on the processing

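Of 93 recomputed values outside the replicate lists, 56 stayed within the spread between replicates or 1.5 times the count, 32 moved and 5 changed direction, and the cause was not tested. Of the 32, 13 are the GC differences, where the replicate lists gave the same value, so that any change counts as moved. The density ratio, gene-end over 2 to 20 kb, was 1.14. It was 1.20 with a limit of 5 kb, 1.01 in the strongest 50% of intervals, 1.18 against 2 to 20 kb upstream of genes, and 0.960 outside soft-masked repeats, the reverse of the main direction. The signal ratio, 0.961, was 0.985 with a limit of 5 kb and 0.995 over 5 kb from every TSS. The width ratio, 0.985, turned to 1.01 with genes of every biotype and to 1.01 against upstream regions, and was 0.976 with a limit of 1 kb, 0.977 in the series-level thresholded list and 0.973 over 5 kb from every TSS. The GC difference, 0.746 points, was 0.995 with a limit of 1 kb, with genes of every biotype or without repeated summit sequence, 0.990 in a shorter window, 0.60005 over whole intervals, 1.74 against upstream regions, 0 over 5 kb from every TSS and 0.498 in the 6 other alternatives. The difference in CpG ratio, -0.0336, was -0.0417 and -0.0267 with limits of 1 and 5 kb, -0.0215 with genes of every biotype, -0.0444 in the strongest 50%, -0.0219 against upstream regions, -0.0418 over 5 kb from every TSS and -0.0277 over whole intervals. The count was 386 with a limit of 1 kb, 1686 with 5 kb, 300 in the strongest 50% and 457 over 5 kb from every TSS. The difference in open adjacent promoters, -1.95 points, turned to 0.409 in the series-level thresholded list and to 2.60 over 5 kb from every TSS, and was not computed against upstream regions. Sharing between replicates, 2.58 points, kept its direction in all its alternatives, with 0.923 to 5.18 when one replicate's list was used. The less strict lists were not among these alternatives and gave the other direction, 86.3% at gene ends against 89.9%.

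With a single replicate's list the count was 372 to 387, the density ratio 1.15 to 1.21, the signal ratio 0.937 to 0.966, the width ratio 0.947 to 0.956, the GC difference 0, the CpG difference -0.0462 to -0.0392 and the promoter difference -1.98 to 1.83, the last positive without replicate 2. The limits over 5 kb from a TSS and outside repeats were added once results had been seen. No paired analysis was possible because the series has 1 group. Depth is unknown, so weak regions called in 1 library cannot be read as absent in the other.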
